A study of Homo sapiens with 2 samples.

Results

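The genes described here are 34 cell cycle genes, chosen by name from the 36601 genes listed in both count matrices. They comprise 16 genes that act or peak around the G1/S transition and in DNA replication (MCM2 to MCM7, PCNA, E2F1, RRM1, RRM2, TYMS, CDC6, CDC45, GINS2, UHRF1 and CLSPN). The other 18 act in G2 and mitosis (TOP2A, MKI67, CENPF, UBE2C, BIRC5, CCNA2, CCNB1, CCNB2, CDK1, AURKA, AURKB, TPX2, PLK1, NUSAP1, CDC20, BUB1, TTK and GTSE1). All 34 were found in the gene lists. They were followed in single cells of colon organoids, with 1 library per group. The organoids derive from 1383D6, a line of human induced pluripotent stem (iPS) cells. The control organoids (CNT) received no cytokines, and the 3CK organoids received 3 cytokines, IL-1β, IFN-γ and TNF-α, over 8 days. Both groups were patterned with activin A and then FGF2 and embedded in Matrigel. Per the labels, their colonic differentiation used 20 ng/mL EGF, 30 µM forskolin, 20 µM PD98059 and 5 µM 5-Aza-2'-deoxycytidine, with a further agent whose name is cut off in the label. Both groups therefore carry a growth factor, a MEK inhibitor and a nucleoside analogue that is taken into newly made DNA. With 1 library per group no test was possible, and every interval below is a 95% interval for the counting of unique molecular identifiers (UMIs) or cells only.

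A dividing cell passes from G1 into S phase when cyclin-dependent kinases inactivate the RB proteins and release E2F transcription factors. E2F switches on the genes that load and fire the replication helicase and that supply nucleotides. Later, B-MYB and FOXM1, with the MuvB complex, switch on the genes for mitotic entry, spindle assembly and cytokinesis, many of them through CCAAT boxes and the cell cycle homology region of their promoters. In the intestine, division is normally kept to the crypt base and the transit-amplifying cells above it, while differentiated cells leave the cycle.

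About 8300 cells were loaded per library. After filtering, 2487 CNT cells with 101831571 UMIs and 1398 3CK cells with 91860414 UMIs remained, and the libraries shared 0 barcodes. Epithelial cells, with at least 2 EPCAM UMIs per 10000, numbered 1660 in CNT (66.7% of kept cells) and 1016 in 3CK (72.7%). Mesenchymal cells, with at least 5 collagen UMIs (COL1A1, COL1A2 and COL3A1) per 10000 and EPCAM under 1, numbered 574 (23.1%, exact binomial interval 21.4 to 24.8) and 124 (8.87%, 7.43 to 10.5). The marker lists followed these names only in part. The 8 mesenchymal markers summed to 14208 CPM (a gene's UMIs scaled by the total UMIs of the population) in CNT and 9274 CPM in 3CK mesenchymal cells, but these cells also carried the keratin KRT18, at 4930 and 6968 CPM. Epithelial cells carried the liver-type transcript TTR, at 64857 and 19491 CPM, and in CNT 497 of them (29.9%) also reached the collagen level, against 49 (4.82%) in 3CK. The pluripotency marker LIN28A stood at 36.7 and 25.5 CPM in epithelial cells. The other markers of that list, POU5F1 (0.67 and 0.91 CPM), NANOG and SOX2, were under 1 CPM there. A sum over cells cannot tell more cycling cells from more RNA of these genes per cycling cell, so sums and per-cell counts are given in turn.

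The promoters of the G1/S and the G2/M genes differed in their motifs. RefSeq promoters on GRCh38.p14, 250 bases before to 50 bases after the start, were matched for 27 of the 34 members, 14 of the G1/S and 13 of the G2/M genes, all but MCM4, MCM5, UBE2C, BIRC5, AURKA, TPX2 and TTK. Where a gene had several starts the first listed was used. The E2F core was searched on either strand with TTCCCGC as its first form, TTCGCGC as its second, TTGCCGC as another and TTGGCGC as the last. It was present in 12 of 14 G1/S promoters, against 3 of 13 G2/M promoters and 13.1% of all 27305 promoters. With all starts listed for a gene searched, it was present in 13 of 14, 3 of 13 and 15.3%. The cell cycle homology region (TTTGAA on either strand) was present in 1 of 14 G1/S promoters (RRM1), 9 of 13 G2/M promoters and 15.4% of all promoters. The CCAAT box (CCAAT on either strand) was common to both lists, in 12 of 14 and 13 of 13, against 35.7% of all promoters. CCAAT box and TTTGAA occurred together in 9 of 13 G2/M promoters and 6.08% of all promoters. The contrast in E2F cores was weaker among further S phase and mitosis genes outside the 34, in 8 of 15 and 5 of 13 promoters. In these lists TTTGAA was present in 0 of 15 and 7 of 13. Some E2F cores overlap one another on opposite strands, as in MCM6. These matches describe letters in the window and are not measured binding sites.

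The 130 bases before the start are shown for 3 genes of each phase whose values are described below. They are written 5′ to 3′ on the gene's own strand and end 1 base before the start, with matches to the motifs in capitals. The G1/S genes are MCM3, at chr6:52284743-52284872 (minus strand), MCM6, at chr2:135876444-135876573 (minus strand), and TYMS, at chr18:657523-657652 (plus strand). In these the capitals are E2F cores and, in MCM3 and MCM6, CCAAT boxes.
MCM3: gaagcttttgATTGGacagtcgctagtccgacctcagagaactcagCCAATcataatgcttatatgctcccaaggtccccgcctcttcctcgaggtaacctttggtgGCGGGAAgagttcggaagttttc
MCM6: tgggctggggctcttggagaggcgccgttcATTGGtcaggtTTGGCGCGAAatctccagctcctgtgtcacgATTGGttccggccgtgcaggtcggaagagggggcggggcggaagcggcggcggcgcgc
TYMS: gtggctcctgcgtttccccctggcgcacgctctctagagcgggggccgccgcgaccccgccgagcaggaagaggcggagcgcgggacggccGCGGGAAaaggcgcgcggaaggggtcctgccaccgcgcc

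The G2/M genes are CCNB2, at chr15:59105016-59105145 (plus strand), CDC20, at chr1:43358851-43358980 (plus strand), and PLK1, at chr16:23678759-23678888 (plus strand). Each combines 1 or more CCAAT boxes, in capitals, with 1 TTTGAA, also in capitals. The TTTGAA began 29 bases before the start in both CCNB2 and PLK1, and 65 bases before it in CDC20.
CCNB2: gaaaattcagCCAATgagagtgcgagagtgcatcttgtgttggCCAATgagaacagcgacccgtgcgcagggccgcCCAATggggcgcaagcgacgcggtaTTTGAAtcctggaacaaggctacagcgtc
CDC20: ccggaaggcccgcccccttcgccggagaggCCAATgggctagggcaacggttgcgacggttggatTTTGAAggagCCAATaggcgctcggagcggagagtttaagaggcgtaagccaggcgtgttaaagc
PLK1: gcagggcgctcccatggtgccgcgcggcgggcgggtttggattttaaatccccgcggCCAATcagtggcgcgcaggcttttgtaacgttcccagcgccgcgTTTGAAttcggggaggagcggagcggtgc

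**Figure D1:**
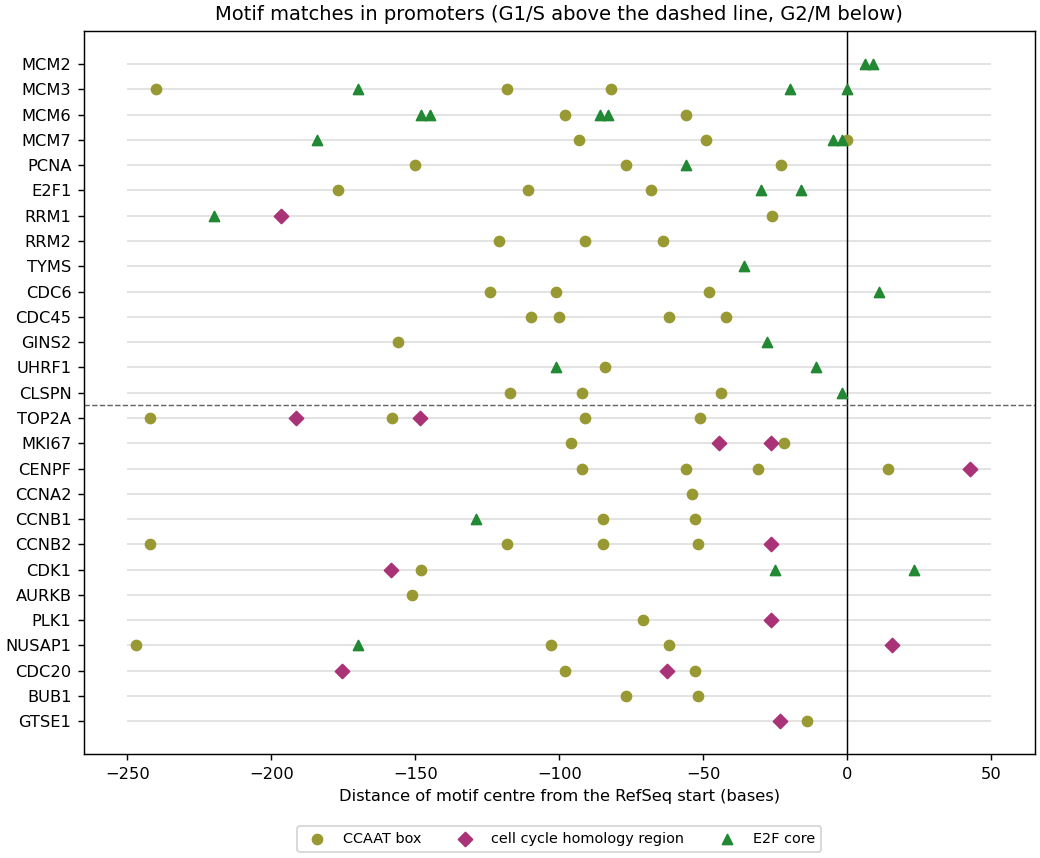
Positions of motif matches in the 27 promoters, with the distance of the motif centre from the RefSeq start in bases on the horizontal axis and 1 gene per row. E2F cores (triangles) lie mostly in the G1/S rows, the cell cycle homology region (diamonds) in 9 of 13 G2/M rows, and CCAAT boxes (circles) in both.

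The CCAAT boxes lay at various distances from the start, and 1 began 53 bases before it in TOP2A, 150 in CDK1 and 16 in GTSE1. The MKI67 promoter held 2 TTTGAA matches, beginning 47 and 29 bases before the start.

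Both lists were higher per UMI in mesenchymal than in epithelial cells, in each library. The populations were defined on EPCAM and collagens alone. In CNT all 16 G1/S genes were higher in mesenchymal cells, with a median log2 ratio of 1.41 against 0.32 over all 18033 genes tested. Of these 16 genes, 13 were at least 2-fold higher, as were 26.1% of all genes tested. The ratio was largest for UHRF1, which maintains DNA methylation at replication forks, at 2.61 CPM in epithelial and 20.5 CPM in mesenchymal cells. It was smallest for the helicase subunit MCM6, at 13.8 and 19.2 CPM. The G2/M genes had a median log2 ratio of 1.93 in CNT, and 17 of 18 were at least 2-fold higher. The kinetochore protein CENPF had the largest ratio there, with 6.76 CPM in epithelial and 42.5 CPM in mesenchymal cells, and the mitotic kinase AURKA the smallest, with 12.0 and 21.9 CPM.

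The same order held in 3CK, where the medians were 1.85 for the G1/S and 2.08 for the G2/M genes against 0.07 over all 17177 genes tested. In that library 14 of 16 and 18 of 18 members were at least 2-fold higher in mesenchymal cells, against 19.0% of all genes tested. RRM2, the small subunit of the ribonucleotide reductase that makes deoxynucleotides, had the largest G1/S ratio, from 7.36 to 43.7 CPM. MCM3 had the smallest, from 29.2 to 42.7 CPM. Among G2/M genes GTSE1, a microtubule-associated protein of G2 and S phase, went from 3.45 to 30.4 CPM and the checkpoint kinase BUB1 from 3.72 to 8.45 CPM.

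**Figure D2:**
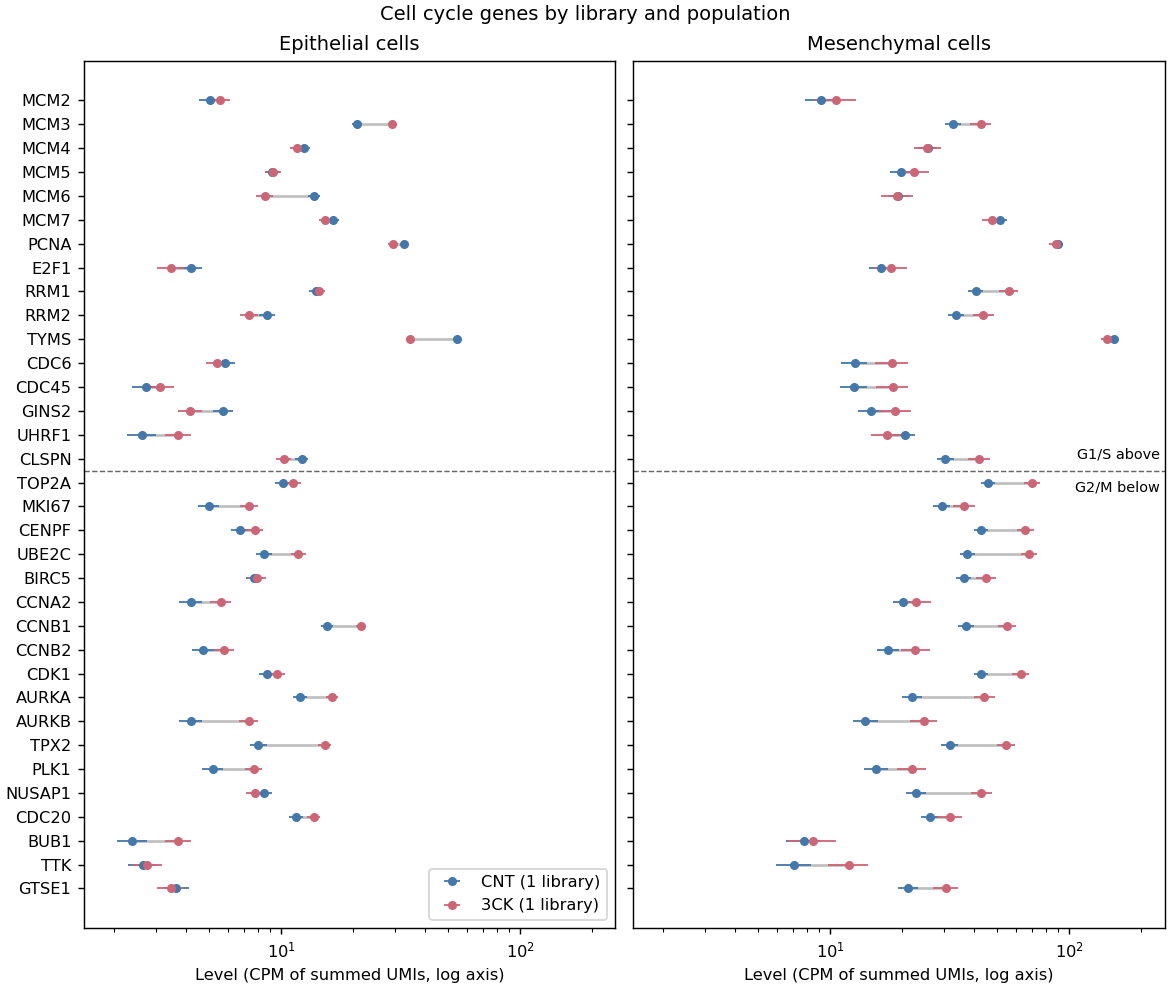
Level of each member in CPM on a log axis, in epithelial (left) and mesenchymal cells (right), with CNT in blue, 3CK in red and bars for the 95% Poisson interval of the count. The dashed line separates the 16 G1/S genes from the 18 G2/M genes, and levels are higher in the right panel for each gene in both libraries.

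In the epithelium the G1/S genes differed little between libraries and not in 1 direction. Their summed level was 220 CPM in CNT and 195 CPM in 3CK, a log2 ratio of -0.17 (interval -0.21 to -0.14). The median over the 16 genes was -0.11, against 0.01 over all 16809 genes tested. Of these 16809 genes 8311 were lower in 3CK, as were 10 of the 16 members. None was at least 1.5-fold higher and 2 were at least 1.5-fold lower, where 16.6% and 20.4% of all genes tested were. Those 2 were MCM6 and TYMS.

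The 6 subunits of the MCM helicase, which unwinds DNA at the replication fork, did not move together in the epithelium. MCM3 stood at 20.8 CPM in CNT against 29.2 CPM in 3CK, a log2 ratio of 0.49 (0.40 to 0.59). MCM6 stood at 13.8 and 8.53 CPM, a log2 ratio of -0.69 (-0.84 to -0.54), although its product works in the same complex. MCM2 was at 5.04 and 5.53 CPM, MCM4 at 12.4 and 11.6 CPM, MCM5 at 9.20 and 9.27 CPM, and MCM7 at 16.5 and 15.3 CPM, and the intervals of these 4 ratios included 0. The promoters of MCM3 and MCM6 printed above both hold E2F cores and CCAAT boxes.

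Among the genes of nucleotide supply, TYMS, the thymidylate synthase, was at 54.2 CPM in CNT against 34.6 CPM in 3CK epithelial cells, a log2 ratio of -0.65 (-0.72 to -0.58). RRM2 was at 8.72 and 7.36 CPM (-0.24, -0.41 to -0.08). The large reductase subunit RRM1 was at 13.9 and 14.4 CPM, with an interval that included 0. These 3 enzymes of one supply route therefore had unlike ratios.

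Of the factors that load and fire origins, GINS2, part of the active helicase, was at 5.74 and 4.18 CPM (-0.46, -0.68 to -0.24). The loading factor CDC6 was at 5.83 and 5.38 CPM and the helicase partner CDC45 at 2.73 and 3.12 CPM, both with intervals that included 0. The polymerase clamp PCNA was at 32.6 and 29.3 CPM (-0.15, -0.24 to -0.07). Of these 4 replication factors only GINS2 and PCNA had intervals below 0, and neither reached a 1.5-fold difference.

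The remaining G1/S genes act in control and maintenance. E2F1, an activator of this list, was at 4.19 and 3.45 CPM (-0.28, -0.53 to -0.03). CLSPN, which couples stalled forks to the kinase CHEK1, was at 12.2 and 10.3 CPM (-0.25, -0.39 to -0.11). UHRF1 was at 2.61 and 3.72 CPM (0.51, 0.24 to 0.78), and its ratio was 0.89 without the epithelial cells that also reached the collagen level. With MCM3, UHRF1 was 1 of the 2 G1/S genes whose interval lay above 0 in the epithelium, while 7 lay below. How many of all genes tested had an interval away from 0 was not counted. Counts of such intervals, here and below, therefore have no background share.

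In mesenchymal cells the G1/S genes summed to 582 CPM in CNT and 630 CPM in 3CK, a log2 ratio of 0.12 (0.07 to 0.16). The median was 0.20 against -0.21 over all 17353 genes tested, and 10 of 16 were higher in 3CK, as were 37.1% of all genes tested. No member reached 1.5-fold in either direction, where 11.1% of all genes tested were higher and 30.1% lower by that much. CDC45 had the largest ratio, with 12.5 and 18.2 CPM (0.54, 0.25 to 0.83), and UHRF1 the smallest, with 20.5 and 17.3 CPM (-0.24, -0.51 to 0.03). The 7 genes with intervals above 0 were MCM3, RRM1, RRM2, CDC6, CDC45, GINS2 and CLSPN. TYMS, at 154 and 143 CPM, was the only G1/S gene with an interval below 0 (-0.10, -0.20 to -0.01), and its ratio turned to 0.08 with TMM factors. GINS2, at 14.8 and 18.6 CPM (0.34), went to -0.05 when each cell had equal weight. PCNA was at 89.9 and 88.1 CPM, MCM2 at 9.16 and 10.5 CPM, MCM4 at 25.5 CPM in both, MCM5 at 19.7 and 22.5 CPM, MCM6 at 19.2 and 19.1 CPM, MCM7 at 51.3 and 47.6 CPM and E2F1 at 16.3 and 17.9 CPM.

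The G2/M genes were higher in 3CK in both populations. In the epithelium they summed to 130 CPM in CNT and 167 CPM in 3CK, a log2 ratio of 0.36 (0.32 to 0.40). The median over 18 genes was 0.35, and 16 of 18 were higher in 3CK where 50.6% of all genes tested were. Of the 18 intervals, 13 lay above 0 and 0 below, with no such count over all genes to set beside them. In this population, 3 of 18 genes were at least 1.5-fold higher (TPX2, AURKB and BUB1), against 16.6% of all genes tested. With doubled population boundaries AURKB and BUB1 were under 1.5-fold, with log2 ratios of 0.54 and 0.46. Under the main settings the share past 1.5-fold was thus close to that over all genes, while the share above 0 was larger. Collagen-positive cells, more frequent among CNT than 3CK epithelial cells, moved with this result, and without them the median was 0.56. In mesenchymal cells the sum was 476 CPM in CNT and 717 CPM in 3CK, a log2 ratio of 0.59 (0.55 to 0.64). There the median was 0.56, 18 of 18 were higher where 37.1% of all genes tested were, 16 intervals lay above 0, and 8 of 18 were at least 1.5-fold higher against 11.1% of all genes tested. With equal weight for each cell the mesenchymal median was 0.31, and 9 of the 16 genes with intervals above 0 left those intervals, all toward smaller ratios.

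**Figure D3:**
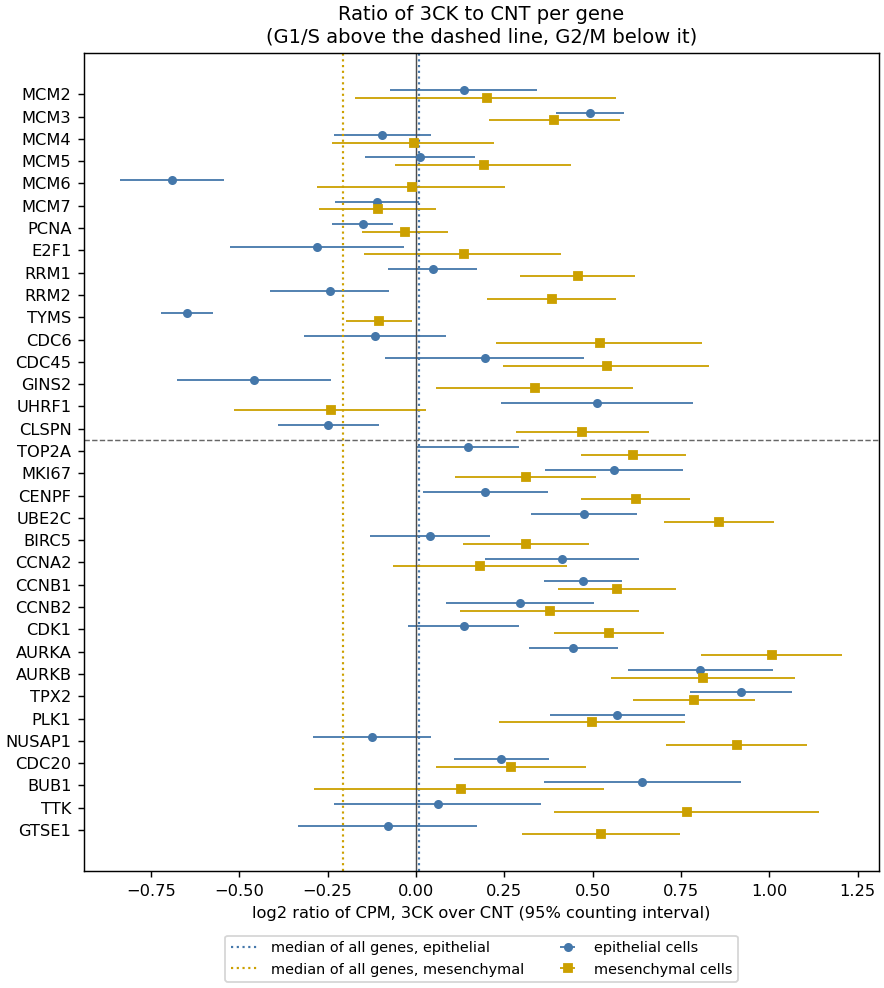
The log2 ratio of CPM in 3CK over CNT for each member, in epithelial (circles) and mesenchymal cells (squares), with 95% counting intervals and dotted lines at the medians of all genes tested. G2/M genes lie to the right of 0 in 16 of 18 cases in epithelial and 18 of 18 in mesenchymal cells, while G1/S genes lie on both sides.

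The mitotic kinases and their partners included the largest ratios. AURKB, the kinase of the chromosomal passenger complex, was at 4.19 CPM in CNT against 7.32 CPM in 3CK epithelial cells (0.81, 0.60 to 1.01) and at 14.0 and 24.6 CPM in mesenchymal cells (0.81, 0.55 to 1.07). The spindle factor TPX2, which activates AURKA, was at 8.05 and 15.2 CPM (0.92, 0.77 to 1.06) and at 31.6 and 54.4 CPM (0.79, 0.61 to 0.96). AURKA was at 12.0 and 16.4 CPM in the epithelium (0.45, 0.32 to 0.57) and at 21.9 and 44.1 CPM in the mesenchyme (1.01, 0.81 to 1.21). These 3 genes were thus higher in 3CK in both populations. PLK1, whose promoter is printed above, was at 5.17 and 7.67 CPM (0.57, 0.38 to 0.76) and at 15.5 and 21.9 CPM (0.50, 0.23 to 0.76). BIRC5, a passenger complex subunit with AURKB, was at 7.72 and 7.93 CPM in the epithelium with an interval that included 0, and at 36.1 and 44.9 CPM in the mesenchyme (0.31, 0.13 to 0.49).

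The next genes encode the cyclins and the kinase that drive mitotic entry. CCNB1 was at 15.5 CPM in CNT against 21.6 CPM in 3CK epithelial cells (0.47, 0.36 to 0.58), and at 36.9 and 54.8 CPM in mesenchymal cells (0.57, 0.40 to 0.74). Its relative CCNB2 was at 4.71 and 5.78 CPM (0.29, 0.09 to 0.50) and at 17.5 and 22.7 CPM (0.38, 0.12 to 0.63). CDK1, the kinase both cyclins activate, was at 8.77 and 9.63 CPM in the epithelium, with an interval from -0.02 to 0.29, and at 42.8 and 62.5 CPM in the mesenchyme (0.55, 0.39 to 0.70, and 0.17 with equal weight per cell). CCNA2, a cyclin of S phase and G2, differed in the epithelium, at 4.20 and 5.59 CPM (0.41, 0.20 to 0.63), whereas its mesenchymal interval, at 20.2 and 22.9 CPM, included 0.

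The genes of chromosome structure and exit from mitosis completed the list. TOP2A, the topoisomerase that untangles sister chromatids, was at 10.2 and 11.3 CPM in the epithelium (0.15, 0.003 to 0.29) and at 45.6 and 69.8 CPM in the mesenchyme (0.62, 0.47 to 0.76). Its epithelial ratio turned to -0.12 with doubled population boundaries and was 0.45 without collagen-positive cells. The proliferation antigen MKI67 was at 4.98 and 7.33 CPM (0.56, 0.37 to 0.75) and at 29.3 and 36.3 CPM (0.31, 0.11 to 0.51). With equal weight per cell its ratios were 0.25 in the epithelium and 0.018 in the mesenchyme. UBE2C, a ubiquitin-conjugating enzyme of the anaphase-promoting complex, was at 8.51 and 11.8 CPM (0.48, 0.33 to 0.63) and at 37.4 and 67.8 CPM (0.86, 0.70 to 1.01). CDC20, which activates that complex, was at 11.6 and 13.7 CPM (0.24, 0.11 to 0.38) and at 26.2 and 31.6 CPM (0.27, 0.06 to 0.48). Each of these 4 genes was higher in 3CK in both populations under the main settings.

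The spindle and checkpoint genes differed more between populations. NUSAP1, a spindle-associated protein, was at 8.45 and 7.76 CPM in the epithelium, with an interval from -0.29 to 0.04, and at 22.8 and 42.8 CPM in the mesenchyme (0.91, 0.71 to 1.11). TTK, a checkpoint kinase, was at 2.64 and 2.75 CPM and at 7.02 and 12.0 CPM (0.77, 0.39 to 1.14 in the mesenchyme). GTSE1 was at 3.65 and 3.45 CPM and at 21.1 and 30.4 CPM (0.52, 0.30 to 0.75 in the mesenchyme). For TTK and GTSE1 the epithelial intervals included 0. BUB1 showed the opposite order, at 2.39 and 3.72 CPM in the epithelium (0.64, 0.36 to 0.92) and at 7.74 and 8.45 CPM in the mesenchyme, where the interval included 0. CENPF was at 6.76 and 7.75 CPM (0.20, 0.02 to 0.37) and at 42.5 and 65.5 CPM (0.62, 0.47 to 0.78). Its epithelial ratio was 0.016 with doubled population boundaries and 0.73 without collagen-positive cells, and its mesenchymal ratio 0.22 with equal weight per cell. Whether a ratio differed between the populations was not tested.

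Per-cell counts described how these sums were spread over cells. Each cell with at least 10000 UMIs was thinned to 10000 UMIs, which left 1013 CNT and 730 3CK epithelial cells and 311 and 106 mesenchymal cells, with 647, 286, 263 and 18 shallower cells left out. In the epithelium the median cell held 0 G2/M UMIs and 1 G1/S UMI in both libraries. Cells with at least 10 UMIs of a list are called high for it, which is a range of counts and not a cell type. G2/M-high epithelial cells numbered 28 of 1013 in CNT (2.76%, 1.84 to 3.97) and 23 of 730 in 3CK (3.15%, 2.01 to 4.69). The difference was 0.39 percentage points, with a Newcombe interval from -1.20 to 2.14. G1/S-high epithelial cells were 35 of 1013 (3.46%) and 21 of 730 (2.88%), a difference of -0.58 points (-2.22 to 1.19). A difference in the share of high epithelial cells was therefore not detectable at these cell numbers. Without thinning the G2/M shares were 2.47% and 3.15% and the G1/S shares 2.57% and 3.15%.

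Mesenchymal cells were high more often. G2/M-high cells were 54 of 311 in CNT (17.4%, 13.3 to 22.0) and 22 of 106 in 3CK (20.8%, 13.5 to 29.7), a difference of 3.39 points (-4.68 to 12.9). G1/S-high cells were 67 of 311 (21.5%) and 29 of 106 (27.4%), a difference of 5.82 points (-3.21 to 15.9). The excess of the G2/M-high share over that of epithelial cells was 14.6 points in CNT (10.6 to 19.3) and 17.6 points in 3CK (10.8 to 26.3). These intervals cover the counting of cells within 1 library and no spread between cultures. Each interval of the difference between libraries included 0. Without thinning the mesenchymal G2/M shares were 17.4% and 21.7% and the G1/S shares 21.9% and 25.5%. Some of the high cells lay near the boundary. Of the 28 CNT and 23 3CK epithelial cells high for G2/M, 7 and 3 held 10 to 12 UMIs, while 10 and 3 further cells held 8 to 9. For G1/S, 15 and 6 of the 35 and 21 epithelial cells held 10 to 12 UMIs, and 13 and 9 further cells 8 to 9. In mesenchymal cells 7 and 2 held 10 to 12 G2/M UMIs and 7 and 6 held 8 to 9, and for G1/S these numbers were 14 and 6, and 6 and 2.

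**Figure D4:**
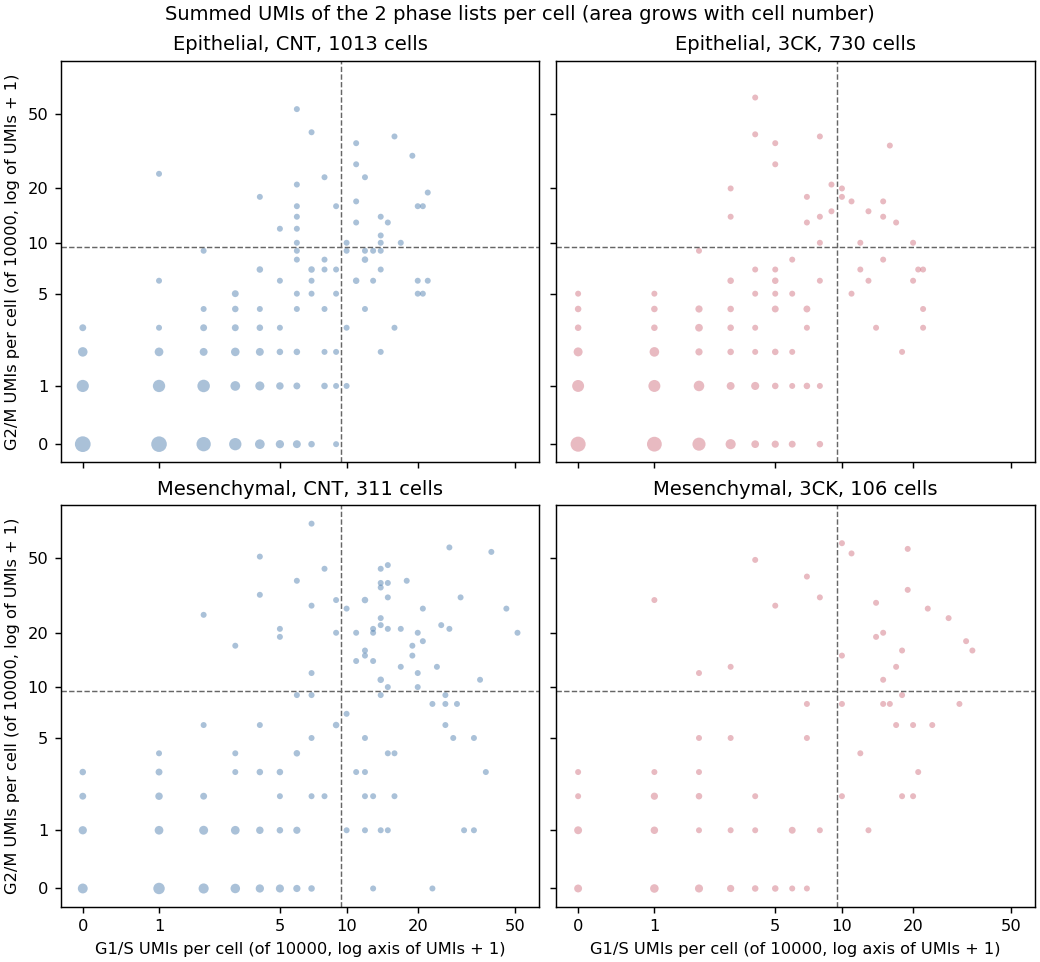
UMIs of the G1/S genes (horizontal) and of the G2/M genes (vertical) per cell after thinning to 10000 UMIs, on log axes of UMIs + 1, for each population and library, with dashed lines at the boundary of 10 UMIs. Most epithelial cells sit near the origin, and cells high for both lists, G1/S only and G2/M only are all present in each panel.

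Some cells were high for 1 list and some for both. In CNT epithelium 19 cells were high for G1/S only, 16 for both and 12 for G2/M only, and in 3CK epithelium 11, 10 and 13. In the mesenchyme these numbers were 26, 41 and 13 in CNT and 14, 15 and 7 in 3CK. Over cells, the Pearson correlation of the summed counts was 0.57 in CNT and 0.46 in 3CK epithelium, and 0.51 and 0.42 in mesenchyme. These describe 1013, 730, 311 and 106 cells that share a library, and have no test.

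The G2/M sum can be divided between high cells and the rest. High cells are defined by these same UMIs, so the division describes where the UMIs lay and is no test. Over epithelial cells with at least 10000 UMIs the sum was 126 CPM in CNT and 165 CPM in 3CK. Of this, high cells contributed 49.8 and 84.9 CPM, and cells below the boundary 75.8 and 80.2 CPM. Within high cells the list stood at 1656 CPM in CNT against 2232 CPM in 3CK. Over cells below the boundary alone, the median ratio of the 18 genes was -0.05 instead of 0.35. The 5 cells with the most G2/M UMIs held 16.4% of all G2/M UMIs of CNT epithelium and 24.2% of 3CK epithelium. These are 5 of 1013 and 5 of 730 cells, so the shares are not comparable between libraries. The intervals on single genes count UMIs as independent, so they do not cover the chance of capturing cells rich in G2/M UMIs.

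In the mesenchyme, high cells contributed 375 of 476 CPM in CNT and 600.4 of 720 CPM in 3CK, and cells below the boundary 102 and 119 CPM. Within high cells the list stood at 2371 and 2617 CPM. The 5 top cells held 20.9% of the list's UMIs among 311 CNT cells and 40.0% among 106 3CK cells. Because 5 cells are a larger part of the smaller population, these shares are not comparable between libraries. Much of the 3CK mesenchymal sum came from few cells. Over cells below the boundary the median ratio was 0.37, where that of all genes tested was -0.19. The G1/S sum was less concentrated in the epithelium, where high cells contributed 51.2 of 218 CPM in CNT and 45.4 of 194 CPM in 3CK.

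Each G2/M gene was then compared with the others of its list. For each gene, high cells were defined by the other 17 G2/M genes, or by all 18 for a G1/S gene, over all kept cells with at least 10000 UMIs. Cells high for all 18 genes held 5.87% of all UMIs in CNT and 7.26% in 3CK. G2/M genes had a median of 58.6% of their UMIs in such cells in CNT and 65.6% in 3CK. TOP2A had the highest share in CNT, 76.4%, and CENPF in 3CK, 81.4%. AURKA had the lowest share in both, 29.0% and 42.1%, with 9.95 and 12.2 CPM left in cells high for neither list. CCNB1 was next to it at 46.7% in CNT, with 10.2 and 11.8 CPM in cells high for neither list.

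G1/S genes had a median of 29.1% and 32.0% of their UMIs in G2/M-high cells. RRM2 was the most G2/M-linked of them, with 53.5% and 60.4%, and MCM6 the least, with 12.6% and 15.7%. CDC6, which loads the helicase before S phase, was at 62.7 CPM in cells high for G1/S only and at 39.2 CPM in G2/M-high cells of CNT, and at 87.4 and 33.4 CPM in 3CK. MCM5 showed the same order, with 72.1 and 33.9 CPM in CNT and 86.7 and 31.9 CPM in 3CK. TYMS showed the reverse, with 265 CPM in G1/S-only and 389 CPM in G2/M-high cells of CNT, and 252 and 303 CPM in 3CK. It also kept 50.4 CPM in CNT and 28.5 CPM in 3CK in cells high for neither list. Those cells mix the populations, whose shares differed between libraries, so these values do not isolate the epithelial difference in TYMS.

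**Figure D5:**
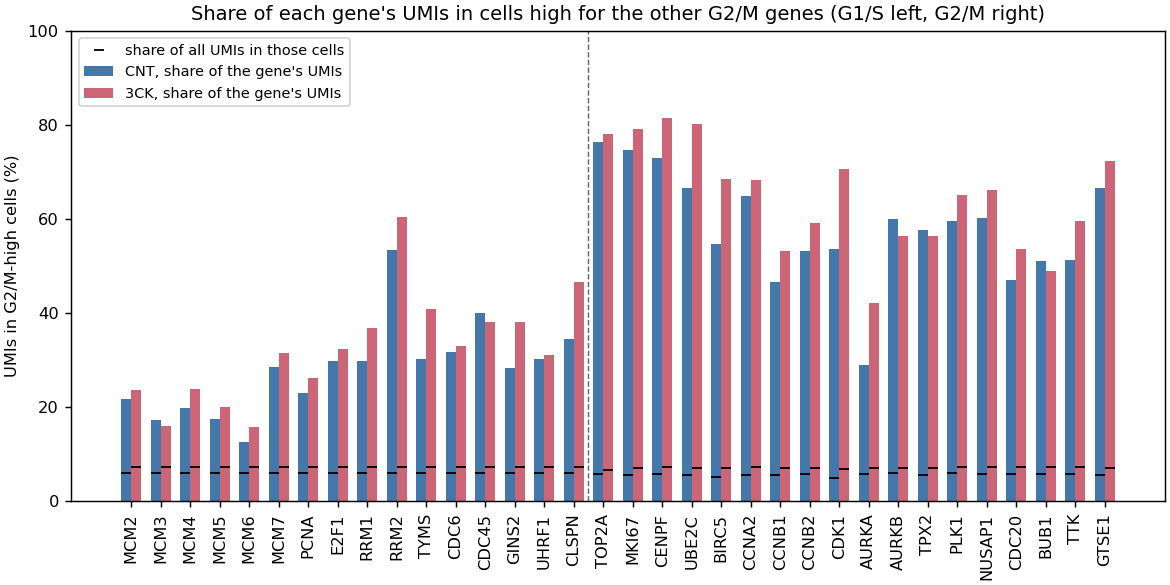
Percentage of each gene's UMIs that lay in G2/M-high cells (the gene itself left out of the definition), in CNT (blue) and 3CK (red), with black marks for the percentage of all UMIs in those cells. G2/M genes range from 29.0% to 76.4% in CNT and from 42.1% to 81.4% in 3CK, and AURKA is lowest among them in both.

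Regulators outside the 34 genes moved in several directions in the epithelium. Of 8 cyclins and kinases of G1, 7 reached 1 CPM, of which 4 were higher and 3 lower in 3CK, where 50.6% of all genes tested were higher. CCND1, the cyclin through which growth signals start the cycle, was at 142 CPM in CNT against 479 CPM in 3CK (1.75, 1.72 to 1.79), and CDK2 at 11.4 and 6.78 CPM (-0.75, -0.91 to -0.58). Of 6 measured CDK inhibitors, 3 were higher and 3 lower. CDKN1C was at 565 and 111 CPM (-2.35, -2.38 to -2.31), CDKN2A at 9.43 and 37.9 CPM (2.01, 1.89 to 2.13) and CDKN2B at 24.1 and 53.3 CPM (1.15, 1.07 to 1.23). CDKN1A, a further inhibitor, was at 148 and 207 CPM (0.48, 0.44 to 0.51).

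The genes for the transcription factors of the G2/M list had unlike ratios in the epithelium. MYBL2, which encodes B-MYB, was at 61.1 CPM in CNT against 15.0 CPM in 3CK (-2.02, -2.12 to -1.93), while the MuvB subunit LIN52 was at 13.0 and 36.8 CPM (1.51, 1.40 to 1.61). FOXM1 was at 3.96 and 4.52 CPM, with an interval from -0.04 to 0.42. In G2/M-high cells MYBL2 stood at 215 and 147 CPM, and below the boundary at 56.8 and 9.78 CPM, so the relative difference was larger below the boundary. FOXM1 stood at 53.7 and 53.5 CPM in G2/M-high cells and at 2.39 and 2.50 CPM below.

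Of 9 measured RB and E2F genes, 8 were higher in 3CK epithelium, against 50.6% of all genes tested, and 2 were at least 1.5-fold higher, against 16.6%. The list was led by the repressor E2F7 at 4.52 and 7.55 CPM (0.74, 0.54 to 0.94), while RBL1 was at 3.83 and 3.18 CPM. RB1 itself was at 20.3 and 22.5 CPM.

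Further S phase and mitosis genes that are not among the 34 had medians of 0.13 over 18 genes and 0.02 over 12 genes in the epithelium. CHEK1, the replication checkpoint kinase, was at 8.15 and 14.1 CPM (0.79, 0.65 to 0.94), and WEE1, which restrains CDK1, at 20.1 and 9.64 CPM (-1.06, -1.19 to -0.93). CDC25B, the phosphatase that opposes WEE1, was at 7.01 and 48.1 CPM (2.78, 2.65 to 2.91), and the centromeric histone CENPA at 18.3 and 8.39 CPM (-1.13, -1.27 to -0.99). CDC25B was at 28.0 and 76.6 CPM in G2/M-high cells and at 6.24 and 47.2 CPM below the boundary, so its difference was present in both ranges. SLBP, which processes histone transcripts, was at 47.6 and 42.3 CPM, and the securin PTTG1 at 16.6 and 19.9 CPM. With 6 of 12 mitosis genes higher and 6 lower, this second list did not show the one-sided order of the 18 G2/M genes in the epithelium.

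In the mesenchyme the second mitosis list did. All 13 of its genes were higher in 3CK, with a median of 0.46 against -0.21 over all genes tested, of which 37.1% were higher. They ranged from MAD2L1 at 38.1 and 39.3 CPM, whose interval included 0, to CDC25C at 3.97 and 8.45 CPM (1.09, 0.62 to 1.56). PTTG1 was at 80.6 and 109 CPM, CENPA at 12.0 and 17.0 CPM and CDC25B at 23.5 and 40.1 CPM. Of 18 further S phase genes, 15 were higher, against 37.1% of all genes tested, with a median of 0.36, from POLA1 at 19.4 and 11.4 CPM (-0.77, -1.09 to -0.45) to PRIM1 at 10.3 and 17.9 CPM (0.80, 0.49 to 1.10). FOXM1 was at 12.3 and 20.0 CPM (0.70, 0.41 to 0.98) and MYBL2 at 32.5 and 37.8 CPM (0.22, 0.03 to 0.41). LIN9, a further MuvB subunit, was at 7.84 and 5.27 CPM (-0.57, -1.07 to -0.10). CCND1 was at 594 and 829 CPM and CDK6 at 213 and 122 CPM. Of 7 CDK inhibitors 4 were higher and 3 lower, from CDKN2B at 13.0 and 6.47 CPM (-1.01, -1.44 to -0.60) to CDKN2A at 18.6 and 23.1 CPM (0.32, 0.07 to 0.57). Of 10 RB and E2F genes 4 were higher and 6 lower. They ranged from E2F2 at 1.98 and 1.10 CPM, whose interval included 0, to E2F7 at 9.21 and 12.3 CPM (0.42, 0.06 to 0.76). Of all genes tested 37.1% were higher.

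Readouts that played no part in choosing the genes differed between G2/M-high cells and the rest. CDKN1C, an inhibitor of CDKs, was lower in G2/M-high cells in each population and library. It was at 322 against 576 CPM in CNT and 59.2 against 113 CPM in 3CK epithelium. In the mesenchyme it was at 29.9 against 108 CPM and 22.1 against 87.0 CPM. CDKN1C was named after its values were seen, and the CDK inhibitors were mixed. Over all cells with at least 10000 UMIs, G2/M-high cells held a median of 12.5% of an inhibitor's UMIs in CNT and 7.14% in 3CK. They held 5.87% and 7.26% of all UMIs, and at most 51.5% and 63.8% of an inhibitor's UMIs. CDKN2B was also lower in each case, while CDKN1A was higher in CNT epithelium, at 167 and 148 CPM. In the mesenchyme CDKN1A was lower in both libraries. The liver-type carriers TTR, APOA1, APOA2 and AFP summed to 56091 CPM in G2/M-high cells and 94743 CPM below the boundary in CNT epithelium, and to 15951 and 30738 CPM in 3CK epithelium. In CNT mesenchyme the pooled order was the opposite, with 2231 and 1405 CPM, but the median cells held 1344 and 1333 CPM. In 3CK mesenchyme the carriers were at 388 and 395 CPM, with an interval that included 0. CDKN2A was at 9.10 CPM in G2/M-high cells and 39.1 CPM below in 3CK epithelium. It had the opposite order elsewhere, at 14.6 and 9.19 CPM in CNT epithelium, 34.8 and 15.6 CPM in CNT mesenchyme and 25.9 and 22.4 CPM in 3CK mesenchyme, the last with an interval that included 0. The G2/M-high epithelial values rest on 24 CDKN2A UMIs in 23 cells of 3CK and 33 UMIs in 28 cells of CNT. The median epithelial cell held 0 CPM of CDKN2A in both ranges of both libraries.

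The cytokine response was present in G2/M-high cells. In 3CK epithelium 15 interferon-induced genes summed to 17012 CPM in G2/M-high cells and 21755 CPM below the boundary, against 1068 and 1730 CPM in CNT, with B2M the most abundant at 6688 and 9778 CPM in 3CK. In 3CK mesenchyme the same list stood at 24698 and 21844 CPM, and 8 NF-kB targets at 9626 and 4920 CPM. The median G2/M-high mesenchymal cell of 3CK held 4636 CPM of the NF-kB targets, and the median cell below the boundary 2463 CPM. In CNT mesenchyme both lists had the opposite order. There the interferon-induced genes were at 2513 CPM in G2/M-high cells and 3364 CPM below, and the NF-kB targets at 204 and 314 CPM. In 3CK epithelium the NF-kB targets were at 1739 CPM in G2/M-high cells and 2214 CPM below. The 3CK values rest on 23 epithelial and 22 mesenchymal G2/M-high cells of 1 library. EPCAM was at 778 CPM in G2/M-high and 961 CPM in other epithelial cells of 3CK, and at 779 and 1101 CPM in CNT.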

How the data were processed

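The deposited matrices hold raw UMI counts per gene and barcode, written by the authors with Cell Ranger 7.1.0 on GRCh38 per the submitters' processing notes; whether intronic reads were counted is not given in the sources used here. Barcodes with at least 500 genes and at most 20% mitochondrial UMIs were kept, and the highest Scrublet scores (scanpy 1.11.5) were removed at 0.8% per 1000 barcodes, 52 in CNT and 16 in 3CK. Kept cells had a median of 28911 UMIs in CNT and 62746 in 3CK. UMIs were summed per population and scaled to CPM. A gene entered the comparison if 1 of the libraries reached 1 CPM. Genes were compared by the size of the ratio of 3CK over CNT, with exact binomial intervals, and levels carry exact Poisson intervals. Steps were tested on simulated data. TMM factors came from edgeR 4.0.16. All 34 genes are described. Of the other cell cycle lists reported, the most abundant gene and those with the largest and smallest ratio in each population are named, besides CDKN1A and FOXM1. Other single genes given within G2/M-high cells were chosen after their values were seen. A further list of genes is not reported here. The members and lists were chosen with earlier results of these data known. The ratios over cells below the boundary and those without collagen-positive epithelial cells were added after seeing the data. Cells with CHGA, meant as a comparison type, were too few (4 in CNT and 3 in 3CK), so shares of cells with a UMI of single genes are not given. Gene levels come from 3' tags, so levels are not ranked between genes.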

Additional observations from a re-analysis of the deposited data

Results flagged for a closer look

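RRM2, GINS2 and CLSPN had ratios of opposite sign in the populations, each lower in 3CK in the epithelium and higher in the mesenchyme, with both counting intervals away from 0. The mesenchymal minus the epithelial log2 ratio was 0.63 for RRM2, 0.79 for GINS2 and 0.72 for CLSPN. With 1 library per group the difference was not tested. RRM2 had 8.72 CPM in CNT against 7.36 CPM in 3CK epithelial cells, and 33.4 against 43.7 CPM in mesenchymal cells. GINS2 was at 5.74 and 4.18 CPM and at 14.8 and 18.6 CPM. CLSPN was at 12.2 and 10.3 CPM and at 30.2 and 41.9 CPM. With equal weight per cell the mesenchymal GINS2 ratio was below 0, at -0.05. The RRM2 ratio was then 0.13, below its counting interval (0.20 to 0.57), and the CLSPN ratio 0.36.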

How the results depend on the processing

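Of the 84 alternative values of the 8 main results, 76 kept their sign and stayed within the main value's interval (for a median ratio, between the medians of its genes' lower and upper bounds), which is wide for the shares. The epithelial G2/M median of 0.35 became 0.56 without collagen-positive cells and -0.049 over cells below 10 G2/M UMIs. The mesenchymal G2/M median of 0.56 became 0.31 with equal weight per cell and 0.37 over cells below the boundary. The difference in G1/S-high epithelial cells of -0.58 points became 0.61 after thinning to 5000 UMIs with a boundary of 5, 0.13 with a boundary of 20, and 0.58 without thinning. The difference in G2/M-high epithelial cells became -0.18 points with doubled population boundaries. The intervals of these differences all included 0. Over all alternatives the G2/M-high difference ran from -0.18 to 1.46 points in the epithelium, where it was 0.0057 with a boundary of 5, and from 0.69 to 9.25 in the mesenchyme. The G1/S-high difference ran from -1.19 to 0.61 and from 0.45 to 8.71 points. The G1/S median ran from -0.23 to -0.08 in the epithelium and from 0.10 to 0.38 in the mesenchyme. Of the alternative values of single genes, 417 stayed within the main interval and 50 kept their sign but left it, most often with equal weight per cell. Among those that changed sign, TOP2A in the epithelium became -0.12 with doubled population boundaries, TYMS in the mesenchyme 0.075 with TMM factors and 0.035 with doubled boundaries, and GINS2 in the mesenchyme -0.054 with equal weight per cell. TMM moved the median of all genes in the mesenchyme by 0.18, and leaving mitochondrial, ribosomal and the 50 most abundant genes out of the total moved that of the epithelium by -0.12. No paired analysis was possible because each group holds 1 library. The shares in 3CK rest on 23 G2/M-high epithelial and 22 mesenchymal cells.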
